A study of Homo sapiens with 15 samples.

Results

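Ribosomal protein genes were chosen from the count table by their class and symbol. Protein-coding genes with an RPL or RPS symbol followed by a digit, and RPSA, RPLP0, RPLP1 and RPLP2, made up the cytosolic class, without the RPS6K kinases. Protein-coding genes with an MRPL or MRPS symbol made up the mitochondrial class. The rule took 170 of 60286 genes, of which 92 were cytosolic and 78 mitochondrial. It used no measured value. After a filter on low counts, 85 cytosolic and 77 mitochondrial genes were tested among 17198 genes.

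The counts come from RNA-seq of wild-type THP-1 cells, a line of human leukemic monocytes. Non-stimulated cells received PBS. The other 4 groups received bacterial extracellular vesicles (BEVs), which were isolated by ultracentrifugation (UC) or by precipitation with ε-poly-L-lysine (PL). *E. coli* BEVs were given at 1 μg/mL (EUC and EPL) and *S. aureus* BEVs at 10 μg/mL (SUC and SPL), and each group had 3 libraries. Species and dose changed together and cannot be told apart. The study's methods give 6 hours of incubation, while the labels give Day 0. All cells were of this single line, in medium with serum and antibiotics. The labels call the samples triplicates and do not say whether they came from separate cultures, so p-values measure the spread between these libraries, which may be technical.

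Ribosomes translate mRNA with a small subunit, which reads the codons, and a large subunit, which joins the amino acids. Cytosolic ribosomal proteins are among the most heavily transcribed genes of a dividing cell, and their mRNAs begin with a C and a run of pyrimidines, the 5′ TOP motif, through which the mTOR pathway sets their translation. Mitochondrial ribosomes are built from nuclear-encoded MRPL and MRPS proteins and translate the few mRNAs of the mitochondrial genome, whose products belong to the respiratory chain.

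A promoter table from RefSeq (GRCh38.p14) listed 141 of the 170 genes, and each entry runs from 250 bases before a transcription start to 50 from it. A C at the start followed by at least 4 further C or T bases was present in 49 of 72 cytosolic genes (68.1%), in 6 of 69 mitochondrial genes (8.7%) and in 1404 of all 27305 listed symbols (5.14%). The first lines below show this run, in capitals, for the cytosolic subunit genes that passed the test relative to the summed class, as described further on. The others show the same window for some of the mitochondrial genes that passed in 2 or 3 comparisons with PBS. Of the lines shown for these genes only that of MRPL44 holds such a run. MRPS18C, MRPL3, MRPL33 and MRPS25 also passed in 2 comparisons, are not shown and held no such run. Where several starts were listed, as for RPS27A and RPS19, the start with the longest run is shown. Each window has 5 bases before the start and 20 from it, on the strand of the gene.
RPS27A (chr2:55232683-55232707, + strand): tcttcCTTTTCgatccgccatctgc
RPLP1 (chr15:69452813-69452837, + strand): gagagCCCCTTTCCTCagctgccgc
RPS9 (chr19:54200853-54200877, + strand): cgcgcCTCTTTCTCagtgaccgggt
RPS19 (chr19:41860250-41860274, + strand): tcgttCCCTTTCCCCTggctggcag
RPL7A (chr9:133348213-133348237, + strand): ctttcCTTTCTCTCTCCTCCCgccg
MRPS6 (chr21:34073573-34073597, + strand): accgtgctttcgccgcctgggagcc
MRPS24 (chr7:43869498-43869522, - strand): tacgtcccgcgctccgcttggccca
MRPS34 (chr16:1773115-1773139, - strand): gctgaggacgcggacccgccatggc
MRPL24 (chr1:156741069-156741093, - strand): ggcccatgtgctgaaaatccgaagt
MRPL18 (chr6:159789807-159789831, + strand): ggaccgctgggaagaggttgaacct
MRPL44 (chr2:223957458-223957482, + strand): gttttCTCTCgtgcaatggcgtccg

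Within the whole 300 bases, other motifs split the classes differently. The letters CCGGAAG, bound by ETS factors such as GABPA, were present on either strand in 33.3% of cytosolic, 43.5% of mitochondrial and 12.2% of all listed genes. The letters AAGATGGCG, bound by YY1, were present in 8.33%, 18.8% and 2.14%. The reverse complement of CCGGAAG begins with 5 bases that also fit the pyrimidine run, so matches to both can overlap, and a match is a description of the sequence, not a measured binding site.

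The libraries held 14399421 to 16637345 counts, with a median of 15831655. The inflammatory cytokine IL1B was at 1.54 to 2.71 CPM, the count of a gene scaled to a common library size, in PBS cells and at 498 to 1990 in BEV cells, so the stimulus was visible in every labelled library. Of 10 monocyte markers, 9 were tested, and in each comparison with PBS 3 were higher (SPI1, CD14 and CSF1R) and 3 lower, with a summed level of 1290 to 1310 CPM in PBS and 1760 to 2290 in BEV libraries. The lower markers were MPO and CD33 in each comparison, with LYZ in EUC, SUC and SPL cells and FCGR1A in EPL cells. The T cell markers CD3D and CD3G and the epithelial marker KRT19 were at 0 counts, and the 5 T cell markers summed to at most 1.18 CPM. The summed B cell markers were at 9.47 to 11.1 CPM in PBS and 12.2 to 27.1 in BEV libraries, and the fibroblast markers at 2.15 to 3.01 and 3.37 to 8.60. The part of these lists in the results was not tested.

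Libraries EUC3 and SUC3 stood apart for the ribosomal proteins. EUC3 was the highest library of its group for 84 of 85 tested cytosolic genes (98.8%) and 74 of 77 mitochondrial genes, and SUC3 for 81 and 67. Over all tested genes, EUC3 was the highest of its group for 41.1%. The median cytosolic gene lay 0.40 above its group mean in EUC3 and 0.30 in SUC3 on the log2 scale, and the median mitochondrial gene 0.32 and 0.22. Other genes shorter than 1000 bases lay 0.07 above the mean in EUC3 and 0.08 in SUC3. Those of 1000 to 2000 bases lay at 0.16 and 0.13 and those of 2000 to 4000 bases at 0.04 and 0.03. Genes of 4000 bases or longer lay at -0.14 and -0.11. The class sums, the class medians and the counts of the comparisons with PBS and of the methods are given below also without EUC3 and SUC3. That fit tested 17661 genes. These libraries were chosen by the levels of the members, so leaving them out lowers the members' values in EUC and SUC cells by that choice. It can also lower the spread of the members, which the fit shares over all groups. Calls in EPL and SPL cells can therefore depend on that choice too. Whether gene length has a part in the levels was not tested beyond the length and GC offset given with the alternatives.

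The highest summed level of the cytosolic class was 1.65 and 1.44 times the lowest among the libraries of EUC and of SUC cells, and 1.13, 1.19 and 1.16 times in PBS, EPL and SPL cells. It was 57820, 62786 and 65554 CPM in the PBS libraries, and 53141, 63106 and 87516 in the EUC libraries. In EPL cells it was 64989, 54645 and 54505 CPM, in SUC cells 58372, 65133 and 83874, and in SPL cells 59218, 67770 and 58174. Every BEV group therefore overlapped PBS, with EUC3 and SUC3 the highest of all. The mean was 62100 ± 3920 (SD, n = 3) in PBS cells, 67900 ± 17700 in EUC and 58000 ± 6010 in EPL cells, 69100 ± 13200 in SUC cells and 61700 ± 5260 in SPL cells. The EUC mean was 58100 and the SUC mean 61800 without EUC3 and SUC3 (n = 2). The class took 5.29 to 8.03% of the counts of a library. In bulk RNA, fewer cells and less RNA per cell cannot be told apart, and CPM shows only shares of the RNA.

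The mitochondrial class was far lower. It summed to 3200, 3353 and 3484 CPM in PBS cells, and to 2649, 2991 and 3801 in EUC cells. In EPL cells it was 3159, 2672 and 2682 CPM, in SUC cells 2871, 3087 and 3730, and in SPL cells 2883, 3107 and 2871. All EPL and SPL libraries lay below every PBS library, whereas EUC3 and SUC3 lay above them and the other EUC and SUC libraries below. With EUC3 and SUC3 left out, the EUC mean was 2820 and the SUC mean 2980 CPM (n = 2), against 3350 ± 142 (SD, n = 3) in PBS cells. The class took 0.264 to 0.371% of the counts. Transcripts of the mitochondrial genome itself, whose mRNAs these ribosomes translate, summed to 34147 to 37075 CPM in PBS and 40775 to 47364 CPM in BEV libraries, without overlap.

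**Figure D1:**
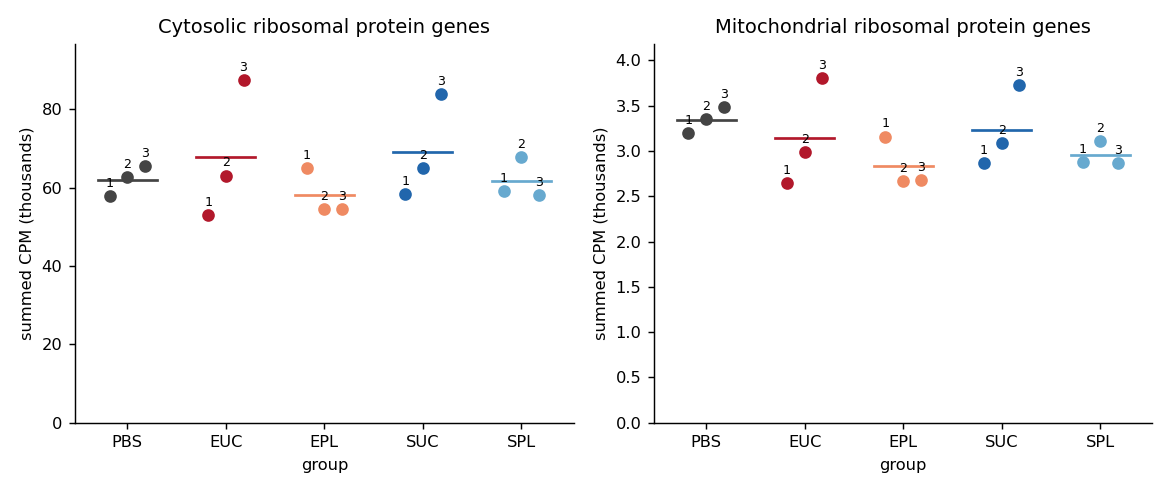
Summed CPM (divided by 1000, linear axis from 0) of the cytosolic and the mitochondrial ribosomal protein genes in each of 15 libraries. Points are libraries with their replicate number and bars are group means. EUC3 and SUC3 are the highest cytosolic values (87516 and 83874 CPM), and the PBS libraries lie within the range of the BEV libraries.

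The ratio between the classes separated PBS from BEV libraries, although the sums in EUC and SUC cells did not. Cytosolic over mitochondrial CPM was 18.1, 18.7 and 18.8 in the PBS libraries. EUC libraries had 20.1, 21.1 and 23.0, and EPL libraries 20.6, 20.5 and 20.3. SUC libraries had 20.3, 21.1 and 22.5, and SPL libraries 20.5, 21.8 and 20.3. All 12 BEV libraries thus lay above all 3 PBS libraries. The ratio of small to large subunit genes within the cytosolic class did the same. It was 0.647, 0.654 and 0.656 in PBS cells, 0.694, 0.706 and 0.729 in EUC cells, and 0.700, 0.698 and 0.700 in EPL cells. SUC cells had 0.697, 0.694 and 0.721 and SPL cells 0.699, 0.712 and 0.695, again without overlap with PBS. The same ratio in the mitochondrial class was 0.525 to 0.542 in PBS and 0.497 to 0.564 in BEV libraries, which overlapped. The ratios do not depend on the scaling of a library, and as scores over the members they were given no test.

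**Figure D2:**
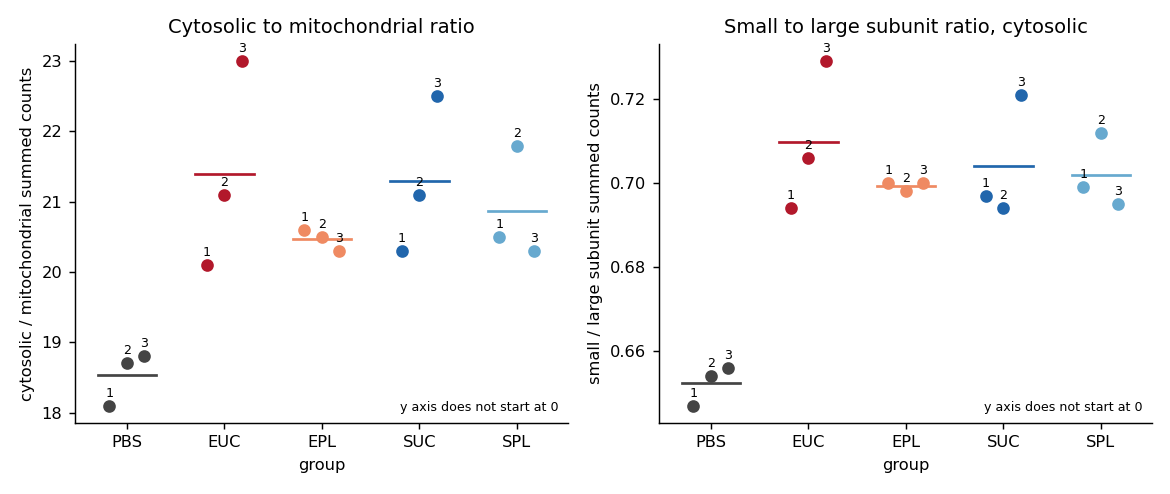
Ratio of summed cytosolic to summed mitochondrial CPM, and of cytosolic small to large subunit genes, in each library. Points are libraries and bars are group means, and the vertical axes do not start at 0. PBS libraries reach 18.8 and 0.656, and BEV libraries begin at 20.1 and 0.694.

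For single cytosolic genes, the comparison with PBS asks whether BEV stimulation moved the transcripts of the translation machinery. At an adjusted p of at most 0.01 (edgeR's quasi-likelihood test), 0 of the 85 genes passed in EUC, SUC and SPL cells, and 1 was lower in EPL cells. Over all tested genes 30.5%, 29.2%, 21.5% and 23.9% passed in EUC, EPL, SUC and SPL cells. At an unadjusted p of at most 0.05 there were 9, 7, 6 and 1 cytosolic genes in these groups, against 48.1%, 47.1%, 40.4% and 42.2% of all genes. DESeq2 called 0, 2, 0 and 0 cytosolic genes, and 33.1%, 31.6%, 24.2% and 26.6% of all genes. The fitted log2 fold changes ranged from -0.42 to 0.48 in EUC, -0.64 to 0.22 in EPL, -0.21 to 0.50 in SUC and -0.43 to 0.33 in SPL cells. The error was not small against these values, as the median SE in EUC cells was 0.162, against 0.164 over all genes. The median within-group SD of log2 CPM was 0.231 for cytosolic, 0.201 for mitochondrial and 0.211 for all genes. Without EUC3 and SUC3, 7 cytosolic genes were lower in EUC (8.24%) and 11 in EPL cells (12.9%), 1 was higher in SPL cells (1.18%) and 0 passed in SUC cells. In that fit 16.6%, 17.6%, 12.8% and 15.3% of all genes were higher and 15.3%, 16.5%, 10.0% and 13.4% lower in EUC, EPL, SUC and SPL cells, so that the cytosolic share was below that of all genes in each comparison and direction. More cytosolic genes passed in EPL and SPL cells with only the groups compared, and in each BEV group without the filter on low counts. Those counts are in the closing section, without the share of all genes.

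With all libraries, the median log2 fold change of the class was above 0 in the UC groups and below 0 in EPL cells. In SPL cells it equalled the median of all genes. The class median was 0.12 in EUC and 0.16 in SUC cells, and -0.11 in EPL and -0.01 in SPL cells, where the median of all genes was 0.00, 0.01, 0.00 and -0.01. Without EUC3 and SUC3 the EUC median was -0.12 and the SUC median 0.00, close to the EPL and SPL medians of that fit (-0.11 and -0.01). As these libraries were chosen for being high in the members, the lower EUC and SUC medians follow partly from that choice. Of the 31 small subunit genes the medians were 0.19, -0.05, 0.23 and 0.03 in EUC, EPL, SUC and SPL cells. The 46 large subunit genes had lower medians in each comparison, at 0.12, -0.13, 0.13 and -0.05. The small subunit medians without EUC3 and SUC3 were -0.03, -0.06, 0.04 and 0.03 and the large subunit medians -0.13, -0.14, -0.02 and -0.05. The fitted value was above 0 in 69, 23, 77 and 40 of 85 cytosolic genes in EUC, EPL, SUC and SPL cells, against 50%, 49.9%, 50.8% and 49.4% of all genes. Across the 4 comparisons, which share the PBS libraries, 23 cytosolic genes were fitted above 0 in each and 7 below 0 in each. Without EUC3 and SUC3, 26, 22, 42 and 40 of 85 were above 0 in the same order, with 18 above and 35 below in each.

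**Figure D3:**
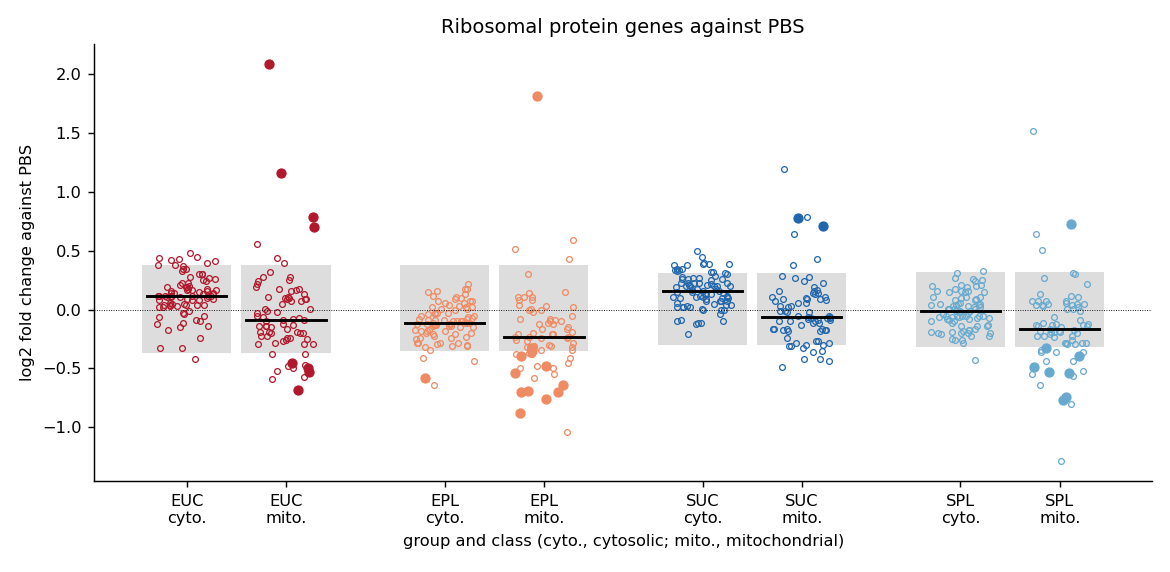
Log2 fold change against PBS of every tested ribosomal protein gene, by comparison and class. Filled points passed an adjusted p of at most 0.01, the black line is the class median and the grey band holds the middle quartiles of all tested genes. All filled points but 1 are mitochondrial.

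Among the small subunit genes, RPS18, RPS2 and the large subunit gene RPL8 had the highest levels per length, at 3260, 2510 and 2240 CPM per kilobase over all libraries. RPS18, part of the head of the small subunit, had 1620, 1770 and 1820 CPM in PBS cells and 1480, 1760 and 2390 in EUC cells. Its levels in EPL cells were 1740, 1550 and 1550 CPM, in SUC cells 1680, 1850 and 2360, and in SPL cells 1690, 1990 and 1620. Each BEV group overlapped PBS, and EUC3 and SUC3 were again the highest.

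The cytosolic genes with the lowest adjusted p in EUC cells were RPLP1, RPS27A and RPS19, none of which passed. RPLP1, a protein of the stalk that recruits elongation factors, had 1160, 1310 and 1390 CPM in PBS and 1320, 1630 and 2320 in EUC cells, a log2 fold change of 0.45 (adjusted p = 0.0518). RPS27A, made as a fusion with ubiquitin, had 665, 706 and 759 CPM in PBS and 724, 886 and 1280 in EUC cells, a log2 fold change of 0.44 (adjusted p = 0.0533). Its values were 923, 760 and 790 CPM in EPL cells, 806, 889 and 1220 in SUC cells and 837, 990 and 842 in SPL cells, with log2 fold changes of 0.22, 0.45 and 0.33. All EPL, SUC and SPL libraries lay above every PBS library, while EUC1 lay within the PBS range. RPS19, the gene most often mutated in Diamond-Blackfan anemia, had 893, 983 and 1030 CPM in PBS and 1010, 1200 and 1840 in EUC cells, a log2 fold change of 0.48 (adjusted p = 0.0543).

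RPL7A, a large subunit protein, went the other way. It had 1290, 1360 and 1410 CPM in PBS cells, 927, 1080 and 1450 in EUC cells and 1090, 951 and 949 in EPL cells. SUC cells had 1050, 1190 and 1550 CPM and SPL cells 1120, 1220 and 1060. All EPL and SPL libraries lay below PBS, and EUC3 and SUC3 lay above it. The log2 fold changes were -0.24, -0.44, -0.10 and -0.25 in EUC, EPL, SUC and SPL cells, with a lowest adjusted p of 0.0243 in EPL cells.

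Ribosomal proteins with known roles outside the ribosome, among them the mitochondrial MRPL58 and MRPS18B, gave 0 calls among 8 genes in each comparison. RPL13A, which silences inflammatory mRNAs in the GAIT complex, had log2 fold changes of -0.04, -0.31, -0.04 and -0.16 in EUC, EPL, SUC and SPL cells. RPS3, which also binds the NF-kappa B subunit p65, had 0.12, -0.12, 0.13 and -0.02. RPS6, the protein phosphorylated by S6 kinase, had 0.13, -0.09, 0.19 and -0.01. RPL5 and RPL11 bind MDM2 together with 5S rRNA, and had -0.14, -0.25, 0.00 and -0.21 and 0.30, 0.07, 0.33 and 0.16.

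Of 10 paralogs of cytosolic ribosomal proteins, 7 were tested and 0 passed in any comparison with PBS. RPL39L, a paralog of RPL39 known from testis, had 11.3, 10.0 and 11.9 CPM in PBS cells, and its log2 fold changes were -0.42, -0.64, -0.21 and -0.43 in EUC, EPL, SUC and SPL cells, with a lowest adjusted p of 0.0163. RPS27L, a p53 target, had 31.5, 33.9 and 35.5 CPM in PBS cells and log2 fold changes of -0.33, -0.41, -0.11 and -0.28, with a lowest adjusted p of 0.0223. The values of RPL22L1 were 0.37, 0.03, 0.16 and 0.21, of RPL26L1 0.02, -0.28, 0.11 and -0.05, of RPL36AL 0.05, -0.20, 0.02 and -0.20, and of RPL7L1 0.15, 0.10, 0.12 and 0.04. The paralogs of the muscle and testis, RPL3L and RPL10L, did not pass the filter. The other cytosolic genes that did not were RPS4Y2, RPS27AP5 and the readthrough genes RPL17-C18orf32, RPL36A-HNRNPH2 and RPS10-NUDT3.

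Because most cytosolic genes of a library moved together, each gene was also followed as a percentage of the summed cytosolic counts of its library. This was added after the data were seen, and the genes named here were chosen from its result. RPS27A took 1.15, 1.12 and 1.16% in PBS cells and 1.36 to 1.46% in the 12 BEV libraries, with a median of 1.42%. RPLP1 took 2.0, 2.08 and 2.13% in PBS and 2.37 to 2.65% in BEV libraries. The small subunit genes RPS9 and RPS19 took 1.10, 1.16 and 1.19% and 1.54, 1.57 and 1.57% in PBS, and 1.24 to 1.45% and 1.71 to 2.10% in BEV libraries. RPL7A took 2.24, 2.17 and 2.14% in PBS and 1.65 to 1.90% in BEV libraries. For these 5 genes the BEV and PBS libraries did not overlap. The share of all genes without overlap on this scale is not given, so the 5 cannot be set against a background.

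With library sizes set to the summed cytosolic counts, a fold change is relative to the class, and 18.6%, 17.2%, 11.9% and 13.4% of all tested genes passed in EUC, EPL, SUC and SPL cells, with 9.70%, 11.6%, 6.31% and 8.37% higher and 8.92%, 5.60%, 5.58% and 5.00% lower. Of the cytosolic genes, 4 were higher and 2 lower in EUC, 2 higher and 1 lower in EPL, and 1 higher in SUC and in SPL cells. RPS27A was higher in each of the 4 comparisons, with log2 fold changes of 0.30, 0.31, 0.29 and 0.33 and adjusted p of 0.00490, 0.00411, 0.00863 and 0.00316. RPLP1 passed in EUC (0.32, adjusted p = 0.00205) and EPL cells (0.28, adjusted p = 0.00550), with 0.22 and 0.26 in SUC and SPL cells. RPS9 (0.29, adjusted p = 0.00794) and RPS19 (0.34, adjusted p = 0.00334) were higher in EUC cells. RPL7A was lower in EUC (-0.36, adjusted p = 7.01e-04) and EPL cells (-0.34, adjusted p = 0.00116), with -0.26 and -0.24 in the *S. aureus* groups, and RPS27L was lower in EUC cells (-0.45, adjusted p = 0.00993). The mean log2 fold change over the 4 comparisons was above 0 in 21 of 31 small subunit genes and in 17 of 46 large subunit genes.

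**Figure D4:**
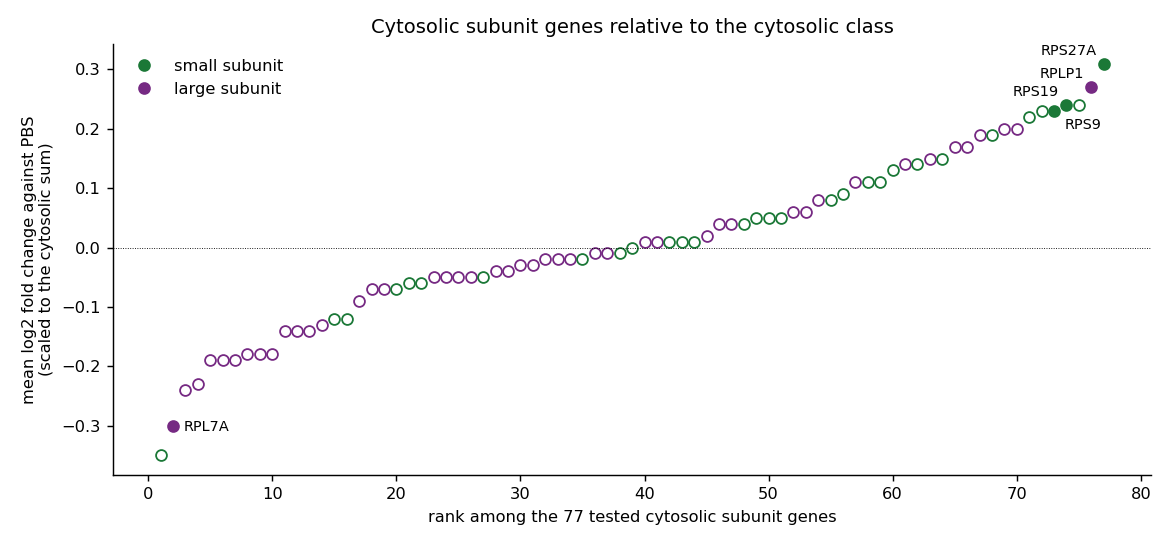
The 77 tested cytosolic subunit genes ranked by their mean log2 fold change over the comparisons with PBS, relative to the summed cytosolic counts, with small and large subunit genes in different colours. Filled points passed an adjusted p of at most 0.01 in at least 1 comparison. Small subunit genes have a mean above 0 in 21 of 31 cases and large subunit genes in 17 of 46.

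The mitochondrial class held calls in both directions. In EUC cells 4 genes were higher and 4 lower, in EPL cells 1 and 11, in SUC cells 2 and 0, and in SPL cells 1 and 7, out of 77. Over all tested genes, 16.5%, 16.0%, 12.4% and 13.3% were higher and 14%, 13.2%, 9.15% and 10.6% lower in EUC, EPL, SUC and SPL cells. The members' count was near this background for lower genes in EPL and SPL cells and below it elsewhere. Of the higher genes, 2 in EUC and 1 in EPL cells passed with a log2 fold change of at least 1, as did 15.2% and 14.5% of all genes in either direction, against 0 lower genes and 0 members in SUC and SPL cells (9.88% and 11.5% of all genes). In any of the 4 comparisons, 16 of 77 mitochondrial genes passed (20.8%), 4 of them higher and 12 lower, against 1 of 85 cytosolic genes (1.18%) and 35.0% of all tested genes. With EUC3 and SUC3 left out, it was 30 of 77 mitochondrial (39.0%) and 13 of 85 cytosolic genes (15.3%), against 38.9% of all genes. The medians were -0.09, -0.23, -0.06 and -0.16 on the log2 scale in EUC, EPL, SUC and SPL cells, and 41 genes were fitted below 0 in each comparison and 16 above. With total counts in place of TMM the median of all genes shifted to -0.16, -0.12, -0.11 and -0.12, and the split of higher to lower genes became 4 to 15, 1 to 27, 1 to 5 and 1 to 16 in the same order. The lower genes were then 19.5%, 35.1%, 6.49% and 20.8% of the class, against 20.9%, 18.9%, 13.4% and 15.5% of all genes, of which 12.8%, 13.0%, 10.2% and 11% were higher. Without EUC3 and SUC3 the lower genes numbered 23, 21, 11 and 17, or 29.9%, 27.3%, 14.3% and 22.1% of the class, above the shares of all genes in that fit (15.3%, 16.5%, 10.0% and 13.4%). As these libraries were left out for being high in the members, lower values in EUC and SUC cells follow partly from that choice. In EPL and SPL cells the lower calls rose from 11 to 21 and from 7 to 17. Their medians were -0.23 and -0.16 with all libraries and -0.24 and -0.16 without the 2. The fit shares the spread over all groups, so the EPL and SPL calls are not free of that choice either. Without EUC3 and SUC3 the higher genes numbered 4, 3, 2 and 3 (5.19%, 3.90%, 2.60% and 3.90%), below those of all genes, and the medians were -0.22, -0.24, -0.15 and -0.16, with 49 genes below 0 in each comparison and 11 above.

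MRPS6 (chr21:34073224-34143034, + strand, hg38), a small subunit protein, was higher in EUC, SUC and SPL cells. It had 15.8, 16.2 and 16.8 CPM in PBS cells, 22.0, 25.1 and 31.8 in EUC cells and 27.9, 21.3 and 20.9 in EPL cells. SUC cells had 22.1, 24.6 and 32.9 CPM and SPL cells 28.4, 26.3 and 25.9. All 12 BEV libraries lay above the PBS libraries, and EUC3 and SUC3 were the highest. Its fitted log2 fold changes were 0.70 (SE 0.157, adjusted p = 0.00176), 0.71 (SE 0.157, adjusted p = 0.00216) and 0.73 (SE 0.157, adjusted p = 0.00156) in EUC, SUC and SPL cells, and 0.52 (SE 0.158, adjusted p = 0.0141) in EPL cells. Without EUC3 the EUC call was lost (0.53, adjusted p = 0.0102), and without SUC3 or PBS1 the SUC call (0.52 and 0.69, adjusted p = 0.0155 and 0.0116). Its exons share 265 bases (6.2%) on the same strand with SLC5A3, a myo-inositol transporter, which had 38.3 to 44.4 CPM in PBS cells and was higher in all 4 comparisons, by log2 fold changes of 1.07, 1.14, 0.92 and 1.08. The part of SLC5A3 reads in the MRPS6 counts was not tested.

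MRPS24 (chr7:43866558-43869893, - strand), a small subunit protein, passed in both *E. coli* groups at very low counts. The PBS libraries held 10, 4 and 10 reads (0.640, 0.235 and 0.596 CPM), and the EUC libraries 22, 30 and 45 reads (1.43, 1.92 and 2.96 CPM). EPL cells had 1.64, 1.91 and 1.69 CPM, SUC cells 0.820, 1.44 and 1.12, and SPL cells 0.894, 1.09 and 2.28. Every BEV library lay above every PBS library. The log2 fold change was 2.09 (SE 0.432, adjusted p = 8.31e-04) in EUC and 1.82 (SE 0.439, adjusted p = 0.00298) in EPL cells, with 1.20 and 1.52 in SUC and SPL cells. Without PBS2 or EPL2 the EPL call was lost (1.49 and 1.75, adjusted p = 0.0202 and 0.0117). The readthrough gene URGCP-MRPS24 shares 606 bases (23.2%) of its exons on the same strand and had 0 counts.

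MRPS18C (chr4:83455932-83469735, + strand), 1 of 3 human homologs of a bacterial small subunit protein, was higher in EUC and SUC cells. It had 3.33, 2.76 and 2.86 CPM in PBS, 5.14, 6.15 and 8.68 in EUC and 4.53, 4.91 and 4.0 in EPL cells. SUC cells had 5.12, 5.19 and 5.02 CPM and SPL cells 5.37, 4.96 and 3.58. All BEV libraries lay above the PBS libraries. Fitted log2 fold changes were 1.16 (SE 0.203, adjusted p = 1.88e-04), 0.59, 0.78 (SE 0.208, adjusted p = 0.00828) and 0.64 in EUC, EPL, SUC and SPL cells. The SUC call held in 5 of the 15 fits with a library left out, and without PBS1, PBS2, PBS3, EUC2, EPL1, EPL2, SUC1, SUC2, SUC3 or SPL2 it was lost, at 0.73 to 0.86 and adjusted p of 0.0102 to 0.0351. It was also lost with upper quartile scaling, total counts, the replicate number as a block and the summed cytosolic counts. The same held for the length and GC offset, with or without that block. ABRAXAS1, a BRCA1 complex gene on the opposite strand, covers 40.2% of its exons, and passed in no comparison, with 0.30, 0.22, 0.11 and 0.03. The homolog MRPS18B had log2 fold changes of 0.18, 0.01, 0.09 and 0.05.

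MRPL14 (chr6:44113451-44127452, - strand), a large subunit protein, passed in EUC cells only by this test. It had 37.2, 41.6 and 44.3 CPM in PBS, 52.3, 67.9 and 92.6 in EUC and 65.3, 48.3 and 51.8 in EPL cells. SUC cells had 55.1, 56.4 and 80.3 CPM and SPL cells 55.4, 67 and 52.5, so that no BEV library overlapped PBS. The log2 fold changes were 0.79 (SE 0.187, adjusted p = 0.00259), 0.43, 0.64 and 0.51 in EUC, EPL, SUC and SPL cells. Without PBS1, PBS2 or EUC3 the call was lost, at 0.54 to 0.80 and adjusted p of 0.0105 to 0.0163.

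**Figure D5:**
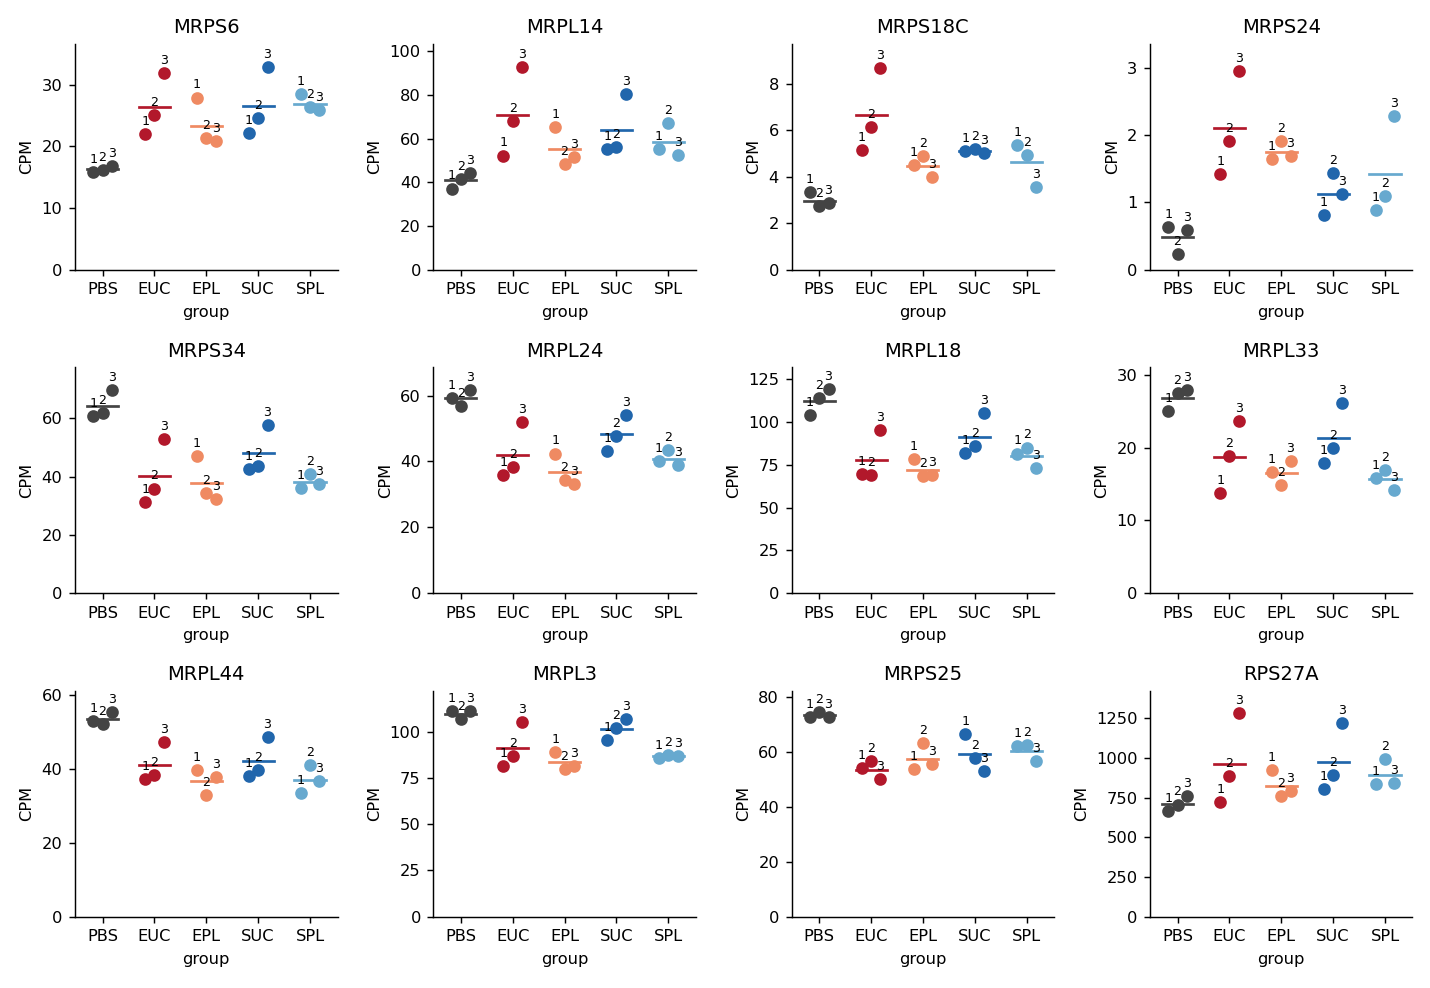
CPM in each of 15 libraries for MRPS6, MRPL14, MRPS18C and MRPS24, for 7 mitochondrial genes that were lower in at least 2 comparisons, and for the cytosolic gene RPS27A. Points are libraries with their replicate number and each panel has its own linear axis. The first 4 genes have every BEV library above the 3 PBS libraries, and MRPS34 and MRPL24 have every BEV library below them.

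MRPS34, MRPL24 and MRPL18 were lower in EUC, EPL and SPL cells. MRPS34 (chr16:1771890-1773150, - strand), a small subunit protein in which mutations cause Leigh syndrome, had 60.7, 61.8 and 69.5 CPM in PBS cells and 31.3, 35.9 and 52.9 in EUC cells. It had 47.0, 34.4 and 32.2 CPM in EPL, 42.5, 43.6 and 57.8 in SUC and 36.1, 41.0 and 37.6 in SPL cells, all below PBS. Its fitted log2 fold changes were -0.68 (SE 0.175, adjusted p = 0.00488), -0.76 (SE 0.176, adjusted p = 0.00222), -0.42 (adjusted p = 0.0815) and -0.74 (SE 0.176, adjusted p = 0.00311) in EUC, EPL, SUC and SPL cells. Its exons overlap EME2, an endonuclease subunit on the opposite strand, over 31.2%.

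MRPL24 (chr1:156737303-156741590, - strand), a large subunit protein near the exit of the nascent chain, had 59.1, 56.9 and 61.8 CPM in PBS cells and 36.0, 38.3 and 51.9 in EUC cells. It had 42.4, 34.5 and 33.1 CPM in EPL, 43.1, 47.6 and 54.2 in SUC and 40.2, 43.4 and 39.0 in SPL cells, again all below PBS. For MRPL24 the log2 fold changes were -0.50 (SE 0.130, adjusted p = 0.00545), -0.69 (SE 0.131, adjusted p = 3.84e-04), -0.30 (adjusted p = 0.0978) and -0.54 (SE 0.130, adjusted p = 0.00384). MRPL18 (chr6:159789812-159798436, + strand), a large subunit protein that binds 5S rRNA in its bacterial form, had 104, 114 and 119 CPM in PBS and 69.8, 69.1 and 95 in EUC cells. It had 78.2, 68.4 and 68.9 CPM in EPL, 82.0, 86.1 and 105 in SUC and 81.5, 85.0 and 72.9 in SPL cells. Only SUC3 reached the PBS range. For MRPL18 the log2 fold changes were -0.53 (SE 0.124, adjusted p = 0.00249), -0.64 (SE 0.125, adjusted p = 4.83e-04), -0.30 (adjusted p = 0.0770) and -0.49 (SE 0.124, adjusted p = 0.00506).

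In fits with a library left out, the EPL calls of MRPL24 and MRPL18 held in 15 of 15. The MRPS34 calls were lost without PBS1, PBS2, PBS3, EUC1 or EUC2 in EUC (-0.71 to -0.53, adjusted p 0.0107 to 0.0312), without PBS3, EPL2 or EPL3 in EPL (-0.70 to -0.66, adjusted p 0.0128 to 0.0169) and without PBS3, SPL1 or SPL3 in SPL cells (-0.72 to -0.68, adjusted p 0.0171 to 0.0211). The MRPL24 calls were lost without PBS1, PBS2, PBS3, EUC1 or EUC2 in EUC (-0.52 to -0.39, adjusted p 0.0127 to 0.0371) and without PBS1, PBS2, PBS3, SPL1 or SPL3 in SPL cells (-0.55 to -0.49, adjusted p 0.0110 to 0.0262). The MRPL18 calls were lost without PBS2, PBS3, EUC1 or EUC2 in EUC (-0.52 to -0.44, adjusted p 0.0113 to 0.0226) and without PBS2, PBS3, SPL1, SPL2 or SPL3 in SPL cells (-0.54 to -0.42, adjusted p 0.0103 to 0.0416). With only the groups compared, the EUC calls of MRPS34, MRPL24 and MRPL18 were lost as well. The direction was kept in each of these fits.

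MRPL33, MRPL44 and MRPL3 were lower in both PL groups. MRPL33, a small protein of the large subunit, had 25, 27.5 and 27.9 CPM in PBS, 16.7, 14.8 and 18.2 in EPL and 15.8, 16.9 and 14.2 in SPL cells, without overlap. Its log2 fold changes were -0.70 (SE 0.169, adjusted p = 0.00312) in EPL and -0.77 (SE 0.169, adjusted p = 0.00169) in SPL cells, and -0.52 and -0.33 in EUC and SUC cells. Its exons share 21.1% of their length on the same strand with BABAM2, another BRCA1 complex gene, which was lower in EUC (-0.65), EPL (-0.59) and SPL cells (-0.46), and the part of BABAM2 reads was not tested. MRPL44, mutated in an infantile cardiomyopathy, had 53.1, 52.1 and 55.3 CPM in PBS, 39.6, 32.9 and 37.8 in EPL and 33.5, 41.0 and 36.7 in SPL cells. Its log2 fold changes were -0.54 (SE 0.117, adjusted p = 0.00126) and -0.53 (SE 0.117, adjusted p = 0.00188), with -0.38 and -0.35 in EUC and SUC cells, and all 12 BEV libraries lay below PBS. MRPL3, a protein near the catalytic core, had 111, 107 and 111 CPM in PBS, 88.9, 79.7 and 81.6 in EPL and 85.5, 87.5 and 86.9 in SPL cells. Its log2 fold changes were -0.39 (SE 0.0897, adjusted p = 0.00212) and -0.33 (SE 0.0896, adjusted p = 0.00770), with -0.26 and -0.11 in EUC and SUC cells. The MRPL3 call in SPL cells held in 4 of 15 fits with a library left out, and those without PBS1, PBS2, PBS3, EUC2, EPL2, EPL3, SUC1, SUC2, SPL1, SPL2 or SPL3 gave -0.34 to -0.31 with adjusted p of 0.0114 to 0.0424. The other calls were lost without PBS2, PBS3 or EPL2 (MRPL33 in EPL, -0.68 to -0.62, adjusted p 0.0137 to 0.0216), SPL3 (MRPL33 in SPL, -0.70, adjusted p = 0.0153), EPL2 (MRPL44 in EPL, -0.47, adjusted p = 0.0124), PBS3, SPL1 or SPL3 (MRPL44 in SPL, -0.51 to -0.45, adjusted p 0.0102 to 0.0214) and PBS3, EPL2 or EPL3 (MRPL3 in EPL, -0.38 to -0.36, adjusted p 0.0101 to 0.0152).

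MRPS25, a small subunit protein, was lower in both *E. coli* groups. It had 72.9, 74.8 and 73.0 CPM in PBS cells, 54.2, 56.8 and 50.1 in EUC cells and 54.0, 63.5 and 55.7 in EPL cells. SUC cells had 66.5, 57.8 and 53.3 CPM and SPL cells 62.3, 62.6 and 56.9. All BEV libraries lay below PBS, and EUC3 and SUC3 were the lowest of their groups here. The log2 fold changes were -0.45 (SE 0.0927, adjusted p = 7.55e-04) in EUC and -0.35 (SE 0.0925, adjusted p = 0.00596) in EPL cells, with -0.31 and -0.28 in SUC and SPL cells. The EUC call held in 15 of 15 fits with a library left out, and the EPL call was lost without PBS1, PBS2, PBS3, EPL1 or EPL3 (-0.36 to -0.30, adjusted p 0.0171 to 0.0251). Both calls were lost with library sizes set to the summed cytosolic counts, and the EPL call also without the filter on low counts. NR2C2, a nuclear receptor on the opposite strand, covers 39.1% of its exons, and its part in the counts was not tested.

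Further lower genes passed once. MRPL34 (-0.88, adjusted p = 0.00173), MRPL55 (-0.70, adjusted p = 0.00548), MRPS15 (-0.48, adjusted p = 0.00987) and MRPS16 (-0.33, adjusted p = 0.00649) passed in EPL cells and MRPL19 (-0.39, adjusted p = 0.00375) in SPL cells. These were lost without EPL2 or EPL3 (MRPL34), without PBS1, PBS2, PBS3, EPL2 or EPL3 (MRPL55), without PBS1, PBS2, SPL2 or SPL3 (MRPL19), without PBS1, PBS2, PBS3, EPL2, EPL3, SPL1 or SPL3 (MRPS16), and in 10 of 15 such fits for MRPS15 (PBS1, PBS2, PBS3, EUC2, EPL2, EPL3, SUC2, SPL1, SPL2 and SPL3), at log2 fold changes of -0.84 to -0.75, -0.74 to -0.58, -0.39 to -0.35, -0.36 to -0.29 and -0.50 to -0.41. MRPL12, which also binds the mitochondrial RNA polymerase, had 8.83, 10.4 and 13.0 CPM in PBS cells and -1.04 in EPL cells with an adjusted p of 0.0101, just outside the threshold. MRPS26 had -0.47, -0.58, -0.42 and -0.52 and MRPL58, a peptidyl-tRNA hydrolase built into the large subunit, had -0.19, -0.31, -0.17 and -0.44 in EUC, EPL, SUC and SPL cells, and neither passed. MRPL37, MRPL41 and MRPL20 had the highest mitochondrial levels per length, at 182, 122 and 120 CPM per kilobase.

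In terms of overlap, 4 mitochondrial genes had all 12 BEV libraries above the 3 PBS libraries, the higher genes named above, and 8 had all below. The latter were MRPL24, MRPS34, MRPL44, MRPS25, MRPL19, MRPL34, MRPS16 and MRPS26. Among the cytosolic genes there were 0 in either direction, while 17.5% of all tested genes had all BEV libraries above and 16.1% all below. Relative to the summed cytosolic counts, MRPS6 (0.58, 0.61, 0.55 and 0.74) and MRPL14 (0.65, 0.52, 0.48 and 0.51) were higher in all 4 comparisons. MRPS34 (-0.81, -0.67, -0.57 and -0.73), MRPL34 (-0.61, -0.80, -0.65 and -0.63), MRPS26 (-0.60, -0.49, -0.58 and -0.52) and MRPL18 (-0.64, -0.54, -0.45 and -0.48) were lower in all 4. MRPL53 had 0 counts in each library, and CCDC142 on the same strand covers 72.8% of its exons.

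Ribosomal proteins with other symbols were set beside the classes. RACK1, a signalling scaffold on the small subunit whose mRNA carries a 5′ TOP run, had 1150, 1200 and 1210 CPM in PBS cells and 731, 815 and 1010 in EUC cells. It had 902, 749 and 754 CPM in EPL, 837, 973 and 1060 in SUC and 885, 896 and 807 in SPL cells, and all BEV libraries lay below PBS. The log2 fold changes were -0.48 (SE 0.116, adjusted p = 0.00306) in EUC, -0.57 (adjusted p = 7.80e-04) in EPL and -0.46 (adjusted p = 0.00484) in SPL cells, with -0.31 (adjusted p = 0.0518) in SUC cells. FAU, the precursor of RPS30, had 0.46, 0.03, 0.42 and 0.14 in EUC, EPL, SUC and SPL cells and did not pass. Of 5 mitochondrial ribosomal proteins with other symbols, 0 passed in any comparison with PBS.

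Other lists of genes that build or regulate ribosomes are read beside the lower share of all genes, 14%, 13.2%, 9.15% and 10.6%. Of 40 ribosome biogenesis factors 7, 7, 3 and 4 were lower in EUC, EPL, SUC and SPL cells (17.5%, 17.5%, 7.50% and 10%) and 0 higher, which is near the lower share of all genes. The nucleolar factor NOC2L had 250, 251 and 249 CPM in PBS and 156 to 186 in BEV libraries, with log2 fold changes of -0.57, -0.58, -0.50 and -0.50, and WDR12, of the PeBoW complex, had -0.55, -0.55, -0.40 and -0.49. Of 14 genes of RNA polymerase I and its factors, 2 were higher and 1 lower in EUC, 0 and 2 in EPL, 2 and 1 in SUC, and 1 and 1 in SPL cells. The higher genes were 14.3%, 0%, 14.3% and 7.14% of this list, against 16.5%, 16.0%, 12.4% and 13.3% of all genes. The lower genes were 7.14%, 14.3%, 7.14% and 7.14% of it. UBTF, which opens the rDNA for transcription, had 338, 342 and 358 CPM in PBS and 214 to 242 in BEV libraries, with -0.65, -0.61, -0.55 and -0.60. RRN3 had 54.3, 55.9 and 60.4 CPM in PBS and 66.4 to 79.1 in BEV libraries, and was higher in 3 comparisons. TAF1A was higher in 2 and POLR1B lower in 1. Over the 4 comparisons the mean log2 fold changes of RRN3, TAF1A and POLR1B were 0.35, 0.49 and -0.29. Of 13 tested translation factors and other genes with 5′ TOP mRNAs 4, 4, 2 and 3 were lower (30.8%, 30.8%, 15.4% and 23.1%) and 0 higher. They were led by EIF3L, which was lower in all 4 comparisons.

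Among 8 regulators of ribosomal protein synthesis 3, 3, 2 and 2 were lower in EUC, EPL, SUC and SPL cells (37.5%, 37.5%, 25% and 25%, where 14%, 13.2%, 9.15% and 10.6% of all genes were lower), and RPS6KB1 was higher in SUC cells. MYC, a transcription factor that drives ribosome biogenesis, had 201, 214 and 209 CPM in PBS and 94.9 to 121 in BEV libraries, with log2 fold changes of -0.91, -1.03, -0.88 and -0.95. EIF4EBP1, the translation repressor phosphorylated by mTOR, had 131, 138 and 143 CPM in PBS and 50.3 to 90.6 in BEV libraries, with -1.10, -1.24, -0.84 and -1.0. In both genes the groups did not overlap. Of 37 genes of mitochondrial translation and ribosome assembly 5, 3, 0 and 2 were lower (13.5%, 8.11%, 0% and 5.41%) and 0 higher, at or below the lower share of all genes. TUFM, the mitochondrial elongation factor Tu, had 240, 241 and 263 CPM in PBS and log2 fold changes of -0.54, -0.64 and -0.50 in EUC, EPL and SPL cells, which passed, and -0.36 in SUC cells (adjusted p = 0.0307).

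Between the BEV groups, the comparisons ask whether the species or the isolation method mattered for these genes. Between the *E. coli* and the *S. aureus* groups 0 of 162 tested members passed in edgeR, against 3.87% of all genes, and 0 in DESeq2, against 5.69%. At an unadjusted p of at most 0.05 there were 1 cytosolic and 3 mitochondrial genes, against 17% of all genes. Between EPL and EUC cells 0 members passed, against 0% of all genes, with 2 cytosolic and 1 mitochondrial gene at an unadjusted p of at most 0.05 (3.51% of all genes). Between SPL and SUC cells it was also 0, against 0.00581% of all genes, with 4 cytosolic and 4 mitochondrial genes unadjusted (5.81%). DESeq2 gave 0 members in both, against 0% and 0.0291% of all genes. In the test of whether the method difference differed between the species it was 0 members and 0% of all genes, with 0 members at an unadjusted p of at most 0.05 (3.83% of all genes) and 0 in DESeq2 (0.0349%). With all libraries the fitted values leaned one way, since 83 of 85 cytosolic and 71 of 77 mitochondrial genes were below 0 in EPL against EUC cells (medians -0.23 and -0.17), and 83 and 68 in SPL against SUC cells (medians -0.16 and -0.13). Of all genes 49.3% and 52.2% were below 0. EUC3 and SUC3, the libraries that stood apart, belong to the UC groups and were chosen for being high in the members. A smaller lean without them therefore follows partly from that choice and does not show what the lean came from. Without them 54 cytosolic and 36 mitochondrial genes were below 0 in EPL against EUC cells (medians -0.01 and 0.01) and 45 and 41 in SPL against SUC cells (medians -0.00 and -0.01), with 48.7% and 50.2% of all genes.

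Reads of ribosomal proteins can be shared with processed pseudogenes. Under the symbols of the members 1372 pseudogenes were found, which held 0.770% as many counts as the cytosolic and 0.183% as many as the mitochondrial genes. MRPL53, at 0 counts, had 33 pseudogene counts. Among members with counts of their own the share of pseudogene counts was highest for RPS10 (46.5%), RPL26 (22.6%), RPL23A (16.7%), RPL17 (15.6%) and RPL41 (14.3%), whose levels are therefore uncertain. RPS19BP1 entered the cytosolic class by its symbol, but encodes a protein that binds RPS19 and is not a ribosomal subunit.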

How the data were processed

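RNA was extracted with Trizol and libraries were made with a NEB kit. The submitters' processing notes name FastQC 0.11.5, HISAT2 2.1.0, StringTie 1.3.3b, DESeq 1.28.0, featureCounts and hg38. The authors deposited raw read counts per gene, without normalization. The strand setting is not given in the sources used here.

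Libraries were grouped by their titles. The counts were fitted here with edgeR 4.0.16 (R 4.3.3) by filterByExpr, TMM and a quasi-likelihood model of all 15 libraries, and each BEV group was compared with PBS, and species and methods with each other. The Benjamini-Hochberg adjustment ran over 17198 genes, and an adjusted p of at most 0.01 was the threshold. CPM are counts scaled by the TMM library size. The common biological coefficient of variation was 0.118. Exons came from GENCODE 44 and starts from RefSeq.

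Named genes were, for each class and direction, up to 8 members that passed in the most comparisons, the 3 highest per kilobase, the paralogs, listed genes with other roles, and up to 3 genes in each direction from each further list. MRPL12, MRPS26, RPLP1, RPS9, RPS27A and RPL7A and the overlapping genes were added once their values had been seen. Members and lists were chosen with earlier results of these data known. The cytosolic gene called in EPL cells is not reported here by name. Scripts were tested on simulated data. Alternatives are given in the closing section, with DESeq2 1.42.0 and mgcv 1.9.3 among them.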

Additional observations from a re-analysis of the deposited data

How the results depend on the processing

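The values of the named calls kept their direction in all alternatives run, and of 30 calls of mitochondrial genes 6 held in all 15 fits that left out a library and 26 in at least 10. Other settings also lost calls. Beside the losses given above, the cytosolic sum lost MRPL3, MRPL44, MRPS15 and MRPS16 in EPL and MRPL3 and MRPL19 in SPL cells. Without the filter on low counts, MRPS16 in EPL and MRPL3 and MRPL19 in SPL cells were lost. RLE size factors and the replicate block each lost MRPS15 in EPL cells. RLE size factors and added pseudogene counts moved no count of calls and no class level by over 1.5 times or beyond the spread. The cause of the changes below was not tested. The share of all genes that passed is given above for DESeq2, total counts, the cytosolic sum and the fit without EUC3 and SUC3. For the other alternatives and the fits with a library left out it is not given, so those counts cannot be set against a background. Without the filter on low counts, 11 cytosolic genes were higher and 11 mitochondrial lower in EUC, 8 cytosolic lower and 3 mitochondrial higher in EPL, 15 cytosolic higher and 2 mitochondrial lower in SUC, and 1 cytosolic and 3 mitochondrial higher and 13 mitochondrial lower in SPL cells, and 2 cytosolic genes were lower in SPL than SUC cells. With an offset for length and GC content, 1 cytosolic gene was higher, 1 lower and 13 mitochondrial lower in EUC, 4 cytosolic lower and 3 mitochondrial higher and 18 lower in EPL, 9 mitochondrial lower in SUC, and 1 cytosolic lower and 2 mitochondrial higher and 12 lower in SPL cells. With this offset and the replicate block, the values were 1, 2 and 13 in EUC, 4, 3 and 18 in EPL, 2 cytosolic higher and 8 mitochondrial lower in SUC, and 1, 3 and 11 in SPL cells. With library sizes set to the cytosolic sum (added after seeing the data), 4 cytosolic were higher and 2 lower and 10 mitochondrial lower in EUC, 2 cytosolic and 3 mitochondrial higher in EPL, 1 cytosolic higher and 4 mitochondrial lower in SUC, and 1 cytosolic and 2 mitochondrial higher in SPL cells. Under this setting 8 mitochondrial genes were still lower in EPL and 9 in SPL cells. With total counts, 2 cytosolic and 15 mitochondrial genes were lower in EUC, 10 and 27 in EPL, 1 mitochondrial was higher and 5 lower in SUC, and 16 lower in SPL cells, where the mitochondrial class level relative to PBS was 0.815 in place of 0.883. Without EUC3 and SUC3 (added after seeing the data), 7 cytosolic and 23 mitochondrial genes were lower in EUC, 11 and 21 in EPL with 3 mitochondrial higher, 11 mitochondrial lower in SUC, and 1 cytosolic and 3 mitochondrial higher and 17 lower in SPL cells. With upper quartile scaling, 8 mitochondrial genes were lower in EUC, 4 cytosolic lower in EPL, and 1 mitochondrial higher and 3 lower in SUC cells. With only the groups compared, 1 mitochondrial gene was lower in EUC, 8 cytosolic lower and 2 mitochondrial higher in EPL, and 10 cytosolic higher and 13 lower and 5 mitochondrial higher and 28 lower in SPL cells. With DESeq2, 2 cytosolic genes were lower and 2 mitochondrial higher in EPL, 1 mitochondrial lower in SUC and 2 higher in SPL cells. Mitochondrial genes lower by DESeq2 numbered 13 in EPL and 8 in SPL cells.

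The replicate numbers did not pair the libraries, since same-numbered libraries correlated from -0.452 to 0.525 and 7 of 15 matched best a library of their own number. With the replicate block, 1 mitochondrial gene was higher in SUC cells in place of 2, and no other count moved by over 1.5 times.

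Leaving out a library in turn, cytosolic genes higher in EUC cells were 0 to 3 (3 without EUC1), mitochondrial higher 2 to 5 and lower 1 to 14 (14 without EUC3). In EPL cells cytosolic lower were 0 to 3 and mitochondrial higher 0 to 2 and lower 3 (without EPL2) to 15 (without EUC3). In SUC cells mitochondrial higher were 0 to 4 and lower 0 to 1, and in SPL cells 1 to 3 and 0 (without SPL3) to 9. The cytosolic level relative to PBS was 0.937 to 1.21 in EUC, 0.879 to 0.964 in EPL, 0.995 to 1.20 in SUC and 0.946 to 1.02 in SPL cells, and the mitochondrial level 0.843 to 1.02, 0.800 to 0.873, 0.890 to 1.02 and 0.860 to 0.901. With 3 libraries a group, the median SE of the cytosolic genes in EUC cells was 0.162 in the fit of all 15 libraries. No cytosolic gene passed in that fit at a log2 change as small as the class medians. With only the groups compared, cytosolic genes passed edgeR's test in SPL cells at changes such as 0.17 (RPSA, adjusted p = 0.00770) and -0.17 (RPL14, adjusted p = 0.00474).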
